A study of Mus musculus with 6 samples.

Results

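Myosin light chains were followed through 9 of the 27729 gene and transcript names on the arrays. Myl1, Myl3, Myl4, Myl6 and Myl6b encode essential chains, and Mylpf, Myl2, Myl7 and Myl9 encode regulatory chains. They were found by gene name in the array files, older and newer symbols of the same gene included, and were read by 14 of the 41174 non-control probes, with 2 probes each for 5 genes and 1 each for 4. RNA came from satellite cells, the stem cells that lie along muscle fibres, of female mouse skeletal muscle in the proliferation phase. Magic-F1, an engineered factor built from receptor-binding parts of hepatocyte growth factor, distinguished the groups: 3 samples were Magic-F1+/+ and 3 were controls. Each sample went onto 1 single-colour Agilent array. The titles of the controls carry the term MLC3F and those of the Magic-F1 samples the term Omo, and the labels explain neither. MLC3F is also the usual name of the shorter protein made from Myl1. Whether the control mice carry a construct with Myl1 sequence is not given, nor are the strain, the age or the promoter of Magic-F1. The series calls the samples biological triplicates but names no separate animals or cultures, and the source names of all 6 samples end in rep1. The spread behind the p-values is therefore that between these 6 samples and could be technical.

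A myosin motor is a heavy chain whose lever arm is wrapped by an essential and a regulatory light chain. The essential chain stiffens the lever arm. The regulatory chain can be phosphorylated by myosin light chain kinase, which starts contraction in smooth muscle and tunes force in striated muscle. Vertebrates make separate light chains for fast muscle, slow and ventricular muscle, atrial and developing muscle, and smooth muscle or nonmuscle cells, and myoblasts switch on the sarcomeric forms when they differentiate.

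Signals are given as log2 relative to the 75th percentile of each array, so that 0 is the level of that percentile. Well above background were 49.2% to 52.0% of an array's spots, and none was saturated. Of 21175 tested probes, limma called 87.7% at an adjusted p under 0.05 (Benjamini-Hochberg), 46.4% lower and 41.3% higher in Magic-F1. A call is therefore common on these arrays, and the sizes of the changes carry more than the calls. Scaling to the spiked-in transcripts instead of the percentile added 0.46 to every log2 change. The samples also differed in markers of satellite cells and of other cells. Of 9 tested satellite cell and myoblast markers 7 were lower and 1 higher, and their summed signal, in multiples of the 75th percentile, was 26.0 to 26.3 on Magic-F1 and 323 to 347 on control arrays. Myog, a factor of differentiating myoblasts, was the brightest of them and weighs most in the control sums (mean log2 7.88 in control and 3.24 in Magic-F1 samples). Pax7, the defining satellite cell factor, was not well above background on the Magic-F1 arrays, and Myf5 was not well above background on all arrays of either group.

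Markers of other cells moved in both directions, and of all tested genes 47.8% were called lower and 40.5% higher. All 14 macrophage markers were higher (summed signal 1721 to 1793 against 129 to 134), as were all 10 tested adipocyte markers (523 to 555 against 62.5 to 69.2). All 8 tested neutrophil markers were lower (0.275 to 0.289 against 583 to 629). Of 9 tested endothelial markers 8 were lower and 1 higher (0.264 to 0.302 against 9.28 to 9.57), and of 9 fibroblast markers 6 were lower and 3 higher (743 to 757 against 1070 to 1098). The part of these differences in the light chain results below was not tested. In RNA of whole samples, fewer cells of a type and less RNA per cell cannot be told apart.

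Light chain probes that differed between the groups were lower in the Magic-F1 samples. Of 13 tested probes 11 were called lower, beside 46.4% of all tested probes, and limma called 0 higher, also at an unadjusted p of 0.05. The median log2 change was −2.26 over the 13 probes and −0.10 over all tested probes. All 8 tested genes had at least 1 probe called lower, and the share of all genes on this measure was not computed. By the brightest tested probe of each gene, Myl6b was not called and the others were lower, beside 47.8% of the 14725 tested genes. That Myl6b probe lies on the strand opposite to the gene, as described below, and is counted among the 13 tested probes. The Myl6b probe on the strand of the gene was called lower. Among essential chains 8 of 10 tested probes were lower (median −2.00), and among regulatory chains 3 of 3 were lower (median −2.39). For 11 probes the 3 Magic-F1 values lay below all 3 control values, as they did for 47.1% of all tested probes.

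**Figure D1:**
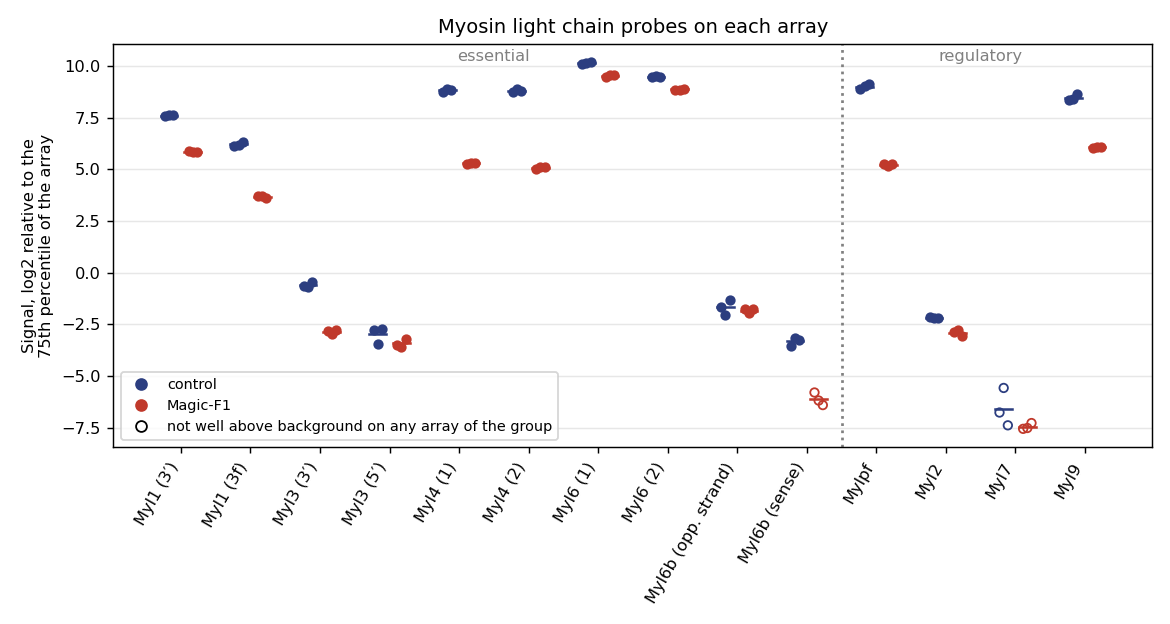
Signal of each of the 14 light chain probes on each of the 6 arrays, as log2 relative to the 75th percentile of the array, with control arrays in blue, Magic-F1 arrays in red, a line at each group mean (n = 3) and open circles where no array of the group was well above background. The separation is widest for Mylpf and both Myl4 probes and narrow for Myl6 and Myl2, and the groups overlap for the 5′ Myl3 probe, the opposite-strand Myl6b probe and Myl7.

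The fast skeletal chains come first. Mylpf encodes the regulatory light chain of fast fibres. Its probe and the 250 bases before its RefSeq start are shown because this gene was among those with the largest falls, with the CAGCTG E-box of the promoter in capitals. The probe spans an intron at chr7:134356749-134356985 (mm9, plus strand), and the promoter window is chr7:127211358-127211607 (GRCm38.p6, plus strand).
Mylpf probe: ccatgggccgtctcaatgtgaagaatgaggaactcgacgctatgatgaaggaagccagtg
Mylpf promoter: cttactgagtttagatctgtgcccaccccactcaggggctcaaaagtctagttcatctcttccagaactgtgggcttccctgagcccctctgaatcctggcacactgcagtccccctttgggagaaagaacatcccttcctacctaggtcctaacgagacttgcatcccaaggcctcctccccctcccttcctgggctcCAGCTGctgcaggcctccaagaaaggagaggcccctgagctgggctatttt

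Mylpf stood at log2 5.27, 5.18 and 5.27 in Magic-F1 replicates 1, 2 and 3, and at 8.89, 9.02 and 9.12 in control replicates 1, 2 and 3. The groups were far apart and each was tight (5.24 ± 0.05 against 9.01 ± 0.11, SD, n = 3). The difference was −3.77 (SE 0.07), which is 13.6-fold lower, with an adjusted p of 8.32e-08 in limma. It was −3.74 on slide 1, which held replicates 1 and 3 of both groups, and −3.84 on slide 2, which held replicate 2 of both. Of all tested probes, 2.74% fell by as much or more. Over the alternatives of the processing it ranged from −3.83 to −3.31.

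Myl1 encodes the essential light chains of fast fibres, a longer form (MLC1F) and a shorter form (MLC3F) that start from separate promoters of the gene. One probe (chr1:66970948-66971007, mm9, minus strand), annotated to an MLC1F transcript, lies in 1 exon near the 3′ end. The other, annotated to an MLC3F transcript, spans an intron at chr1:66976853-66981100 (mm9, minus strand). The probes were not placed against the exons of the forms and may not separate them. The spanning probe is shown with the 250 bases before the RefSeq start of the gene (chr1:66945057-66945306, GRCm38.p6, minus strand), where the CAGCTG E-box is in capitals.
Myl1 spanning probe: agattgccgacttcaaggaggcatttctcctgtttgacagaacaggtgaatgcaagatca
Myl1 promoter: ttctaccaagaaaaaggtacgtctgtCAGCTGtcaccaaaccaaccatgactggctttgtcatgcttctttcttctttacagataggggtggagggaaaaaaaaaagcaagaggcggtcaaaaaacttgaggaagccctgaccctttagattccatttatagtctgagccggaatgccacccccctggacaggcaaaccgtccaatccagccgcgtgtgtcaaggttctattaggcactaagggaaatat

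The 3′ Myl1 probe stood at log2 5.88, 5.85 and 5.85 in Magic-F1 and at 7.58, 7.62 and 7.62 in control replicates. These values did not overlap and gave a difference of −1.75 (SE 0.04), or 3.36-fold lower, with an adjusted p of 1.79e-07. Within slides the difference was −1.74 and −1.77. The spanning probe fell further. It stood at 3.72, 3.73 and 3.61 in Magic-F1 and at 6.12, 6.19 and 6.33 in control replicates, a difference of −2.53 (SE 0.07) or 5.77-fold lower, with an adjusted p of 3.50e-07. Within slides this was −2.56 and −2.47. The log2 ratio of the spanning to the 3′ probe was −2.17 ± 0.06 on Magic-F1 and −1.39 ± 0.09 on control arrays (SD, n = 3), a change of −0.78 (SE 0.06). This ratio does not show which form changed. The ratios did not overlap, and the 2-sided exact permutation p was 0.1, the smallest that 3 arrays against 3 can give (0.125 after Benjamini-Hochberg adjustment over 5 such pairs of probes, compared after the data were seen).

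Myl4 encodes the essential chain of embryonic muscle and of the atrium, and it is made in developing limb muscle. Its probes overlap by 47 bases, which are in capitals below, so they are not independent readings. They span the same intron at chr11:104445422-104445792 and chr11:104445435-104445805 (mm9, plus strand). The promoter window is chr11:104550413-104550662 (GRCm38.p6, plus strand) and is shown because it holds none of the motifs searched for, an E-box included.
Myl4 probe 1: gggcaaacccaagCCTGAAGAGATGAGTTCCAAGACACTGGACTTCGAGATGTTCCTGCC
Myl4 probe 2: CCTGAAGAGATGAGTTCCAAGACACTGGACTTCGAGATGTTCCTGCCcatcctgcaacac
Myl4 promoter: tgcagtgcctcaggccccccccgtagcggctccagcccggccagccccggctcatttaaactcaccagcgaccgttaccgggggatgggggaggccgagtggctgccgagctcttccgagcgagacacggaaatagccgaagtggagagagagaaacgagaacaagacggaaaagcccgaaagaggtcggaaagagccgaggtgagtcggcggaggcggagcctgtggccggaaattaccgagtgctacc

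Myl4 probe 1 stood at log2 5.27, 5.30 and 5.31 in Magic-F1 and at 8.77, 8.89 and 8.84 in control replicates. The difference was −3.54 (SE 0.05), or 11.6-fold lower, with an adjusted p of 3.54e-08, and −3.52 and −3.59 within slides. The gap was many times the spread within either group (SD 0.02 in Magic-F1 and 0.06 in control samples). Myl4 probe 2 stood at 5.03, 5.13 and 5.12 in Magic-F1 and at 8.73, 8.89 and 8.79 in control replicates, a difference of −3.71 (SE 0.06) or 13.1-fold lower, with an adjusted p of 5.70e-08. Within slides it was −3.69 and −3.76.

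Myl3 and Myl2 encode the essential and the regulatory chain of slow fibres and of the ventricle. Their signals lay below the 75th percentile on all 6 arrays. The 3′ Myl3 probe spans an intron at chr9:110671632-110671926 and the 5′ Myl3 probe lies in 1 exon at chr9:110666325-110666384 (both mm9, plus strand). The probes are shown because they disagree. The 5′ probe holds the heptamer CTGCACC 3 times, in capitals, and has a GC content of 68.3% against 48.3% for the other.
Myl3 3′ probe: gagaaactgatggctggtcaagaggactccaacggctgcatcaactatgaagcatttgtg
Myl3 5′ probe: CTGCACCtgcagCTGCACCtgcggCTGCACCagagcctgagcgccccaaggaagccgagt

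The 3′ Myl3 probe stood at log2 −2.83, −2.96 and −2.77 in Magic-F1 and at −0.66, −0.68 and −0.45 in control replicates. The groups were separate, with a difference of −2.26 (SE 0.09), or 4.78-fold lower, and an adjusted p of 1.20e-06. Within slides it was −2.24 and −2.28. It shrank to −1.47 (2.77-fold lower) with normexp background correction. Normexp was run here on the mean spot signals with an offset of 50 added, and that offset compresses dim signals. The 5′ probe stood at −3.50, −3.59 and −3.19 in Magic-F1 and at −2.76, −3.43 and −2.73 in control replicates. These values overlapped, since control replicate 2 lay among the Magic-F1 values, and the difference of −0.45 (SE 0.22) was not called (adjusted p = 0.0923). It was −0.60 on slide 1 and −0.16 on slide 2, and it was called lower with slide as a block (adjusted p = 0.0224) and with the replicate block (adjusted p = 0.0329). Without control replicate 2 it was −0.68 and was called (adjusted p = 0.00484), and its adjusted p lay between 0.00148 and 0.963 across the alternatives. Under spike-in scaling its sign turned, to 0.011. The log2 ratio of the 5′ to the 3′ probe moved by 1.81 (SE 0.21) without overlap (exact permutation p = 0.1, adjusted 0.125).

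The Myl2 probe spans an intron at chr5:122553922-122554872 (mm9, plus strand) and is shown for the comparison of slow with fast regulatory chains.
Myl2 probe: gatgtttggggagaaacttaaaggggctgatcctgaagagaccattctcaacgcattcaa

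Myl2 stood at log2 −2.89, −2.77 and −3.04 in Magic-F1 and at −2.15, −2.21 and −2.18 in control replicates. The groups did not overlap, but the gap was small. The difference was −0.72 (SE 0.08), or 1.65-fold lower, with an adjusted p of 0.000145. Within slides it was −0.80 and −0.56, with normexp background −0.47, and under spike-in scaling −0.26 with an adjusted p of 0.0486, so the size depends on the scaling.

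Myl7, the regulatory chain of the atrium, was not well above background on any array and was not tested. Its signal was −7.56, −7.52 and −7.28 in Magic-F1 and −6.77, −5.58 and −7.39 in control replicates, at chr11:5796640-5796699 (mm9, minus strand). These values overlapped and give no direction. Of 13 cardiac muscle markers 7 were likewise not tested, among them Nkx2-5, Gata4 and Hand2. Of the 6 tested 3 were lower (Nppb, Myh6 and Mybpc3) and 1 higher (Tnni3), beside 47.8% and 40.5% of all tested genes. The summed signal of the 6 tested markers was 0.983 to 1.13 on Magic-F1 and 2.70 to 2.84 on control arrays.

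Myl9 encodes the regulatory light chain of smooth muscle, and nonmuscle cells make it too. Its probe lies in 1 exon at chr2:156607301-156607360 (mm9, plus strand). The 250 bases before its RefSeq start (chr2:156775214-156775463, GRCm38.p6, plus strand) are shown with the CArG box, the motif of serum response factor, in capitals.
Myl9 promoter: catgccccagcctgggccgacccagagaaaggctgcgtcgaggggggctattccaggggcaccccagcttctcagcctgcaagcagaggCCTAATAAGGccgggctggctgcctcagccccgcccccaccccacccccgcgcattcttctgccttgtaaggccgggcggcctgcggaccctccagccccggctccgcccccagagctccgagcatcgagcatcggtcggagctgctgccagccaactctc

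Myl9 stood at log2 6.06, 6.08 and 6.08 in Magic-F1 and at 8.38, 8.39 and 8.64 in control replicates. Control replicate 3 was the highest, and the groups were separate. The difference was −2.39 (SE 0.08), or 5.25-fold lower, with an adjusted p of 6.99e-07, and −2.44 and −2.31 within slides. Of 14 smooth muscle and pericyte markers 13 were lower and 1 was higher, beside 47.8% and 40.5% of all tested genes. Their median log2 change was −1.88, and the summed signal of these markers was 299 to 312 on Magic-F1 and 1220 to 1267 on control arrays. Rgs5, a pericyte marker, was not well above background on the Magic-F1 arrays, while Acta2, smooth muscle actin, stood at 6.92 in Magic-F1 and 9.42 in control samples. Pdgfrb was the marker called higher (log2 0.70). Cspg4 and Notch3 changed by −0.51 and −0.46, and under spike-in scaling by −0.045 and 0.0019. The part of these cells in the Myl9 result was not tested.

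Myl6 encodes the essential chain of smooth muscle and nonmuscle myosin, and nearly all cells make it. Its probes share 28 bases and lie at chr10:127927969-127928028 and chr10:127927937-127927996 (mm9, minus strand). The first stood at log2 9.49, 9.57 and 9.59 in Magic-F1 and at 10.13, 10.15 and 10.19 in control replicates. The groups were separate, with a difference of −0.60 (SE 0.05), or 1.52-fold lower, and an adjusted p of 4.42e-05. The second stood at 8.87, 8.87 and 8.88 in Magic-F1 and at 9.46, 9.54 and 9.46 in control replicates. Its difference was −0.61 (SE 0.05), or 1.53-fold lower, with an adjusted p of 2.53e-05. Within slides the differences were −0.62 and −0.57 for the first and −0.59 and −0.67 for the second. The call depended on the probe and the scaling. Under spike-in scaling the first probe changed by −0.14 and was not called (adjusted p = 0.0632). The second changed by −0.15 there and was called (adjusted p = 0.0422). Under quantile normalization the second changed by −0.11 and was not called (adjusted p = 0.109). The first changed by −0.32 there and was called (adjusted p = 0.000873). Over all alternatives the adjusted p ranged from 1.61e-06 to 0.0632 for the first and from 8.23e-07 to 0.109 for the second.

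Myl6b encodes an essential chain of slow skeletal muscle and nonmuscle cells, and its gene lies beside Myl6. Only 1 of its probes reads the strand of the gene. The order of the coordinates in the files matches the gene's strand for 99.7% of 20108 probes, and by this order the other Myl6b probe (chr10:127932373-127932432, mm9) lies on the plus strand while the gene is on the minus strand. The sense probe spans an intron at chr10:127933443-127934278 (mm9, minus strand) and is shown as the probe that reads the gene.
Myl6b sense probe: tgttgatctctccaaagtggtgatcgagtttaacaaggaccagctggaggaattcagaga

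The sense Myl6b probe stood at log2 −5.80, −6.19 and −6.41 in Magic-F1 and at −3.53, −3.18 and −3.24 in control replicates. It was well above background on all 3 control arrays and on 0 Magic-F1 arrays. It was at least 3.92-fold lower, taking the lowest signal well above background on each Magic-F1 array as the bound (fitted difference −2.82, SE 0.18, adjusted p = 1.15e-05). The fitted difference was −2.72 and −3.01 within slides, and with normexp background it was −0.74. The opposite-strand probe stood at −1.77, −1.97 and −1.78 in Magic-F1 and at −1.67, −2.03 and −1.34 in control replicates. The groups overlapped, and the difference of −0.16 (SE 0.18) was not called (adjusted p = 0.425). It was −0.27 on slide 1 and 0.06 on slide 2, and its sign also turned under spike-in scaling (0.30) and without control replicate 3 (0.012).

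**Figure D2:**
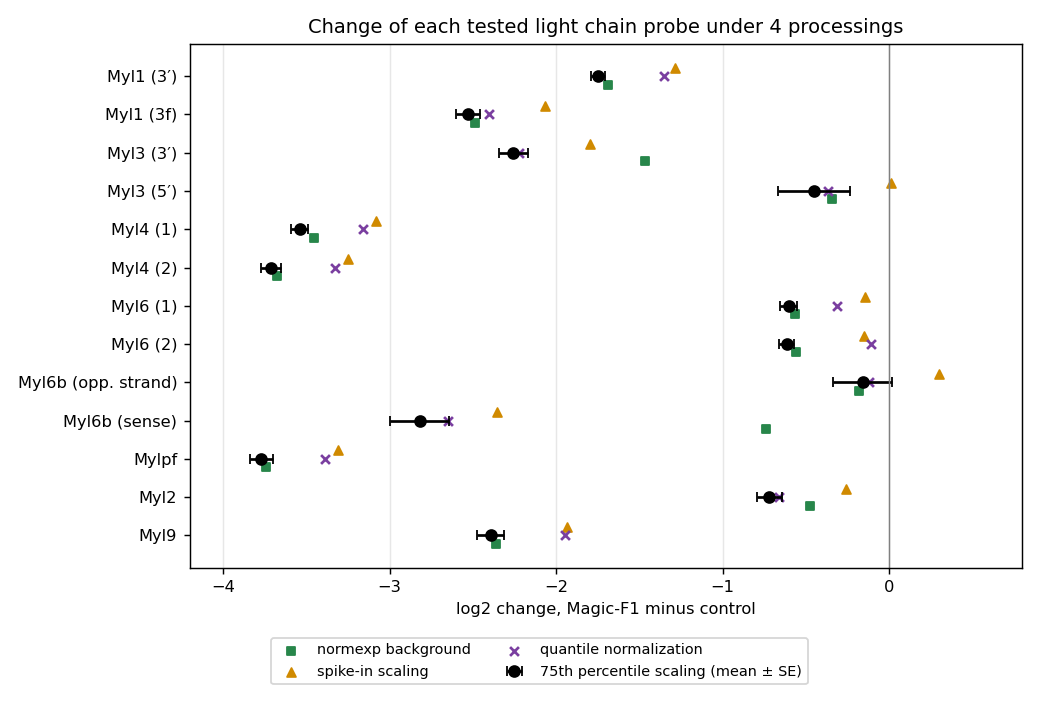
Log2 change of each of the 13 tested probes, Magic-F1 minus control, fitted over 6 arrays with percentile scaling (black, with its SE), normexp background (green), quantile normalization (purple) and spike-in scaling (orange). Mylpf and Myl4 stay below −3 in each, the 3′ Myl3 probe and the sense Myl6b probe shrink with normexp background, and the 5′ Myl3 and opposite-strand Myl6b probes cross 0 under spike-in scaling.

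The members did not fall by the same amount. A ratio of 2 probes on 1 array does not depend on the scaling of that array, so 7 pairs of genes were compared through the change of that log2 ratio, with the brightest tested probe of each gene. The ratio of Myl1 to Mylpf was 0.61, 0.66 and 0.58 on Magic-F1 and −1.31, −1.40 and −1.50 on control arrays. Both ratios were tight and separate, and the change was 2.02 (SE 0.06), so Mylpf fell 4.06-fold further than the 3′ Myl1 probe. Myl4 fell 3.46-fold further than that probe (−1.79, SE 0.03), with ratios of −0.60, −0.55 and −0.54 against 1.19, 1.27 and 1.22. The spanning Myl1 probe fell further than the 3′ probe. With the median of the probes of each gene the 2 changes were smaller, 1.63 and −1.49.

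Myl2, Myl9 and Myl6 fell by less than the fast chain each was set against. Relative to Mylpf, Myl2 moved by 3.05 (SE 0.13), with ratios of −8.16, −7.96 and −8.31 on Magic-F1 and −11.05, −11.23 and −11.30 on control arrays. Myl9 moved by 1.38 (SE 0.06) relative to Mylpf, with ratios of 0.79, 0.90 and 0.81 against −0.51, −0.63 and −0.48. Myl6 moved by 1.14 (SE 0.04) relative to Myl1, with ratios of 3.61, 3.72 and 3.74 against 2.54, 2.52 and 2.57. None of these 3 pairs of groups overlapped. Myl3 moved by −0.51 (SE 0.09) relative to Myl1 with its brightest probe, by 0.22 with normexp background and by 0.79 with the median of the probes of each gene, so no order of Myl3 and Myl1 held. For Myl6b relative to Myl6 the change was 0.44 (SE 0.20) with the opposite-strand probe, where the ratios overlapped, while the sense probe, dim in Magic-F1, gave only a limit, with Myl6b falling at least 2.58-fold further than Myl6. Each of the 6 pairs without overlap had a 2-sided exact permutation p of 0.1, the smallest possible, and 0.117 after adjustment over 7 pairs, and Myl6b against Myl6 had 0.2, so no pair passed a threshold of 0.05.

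**Figure D3:**
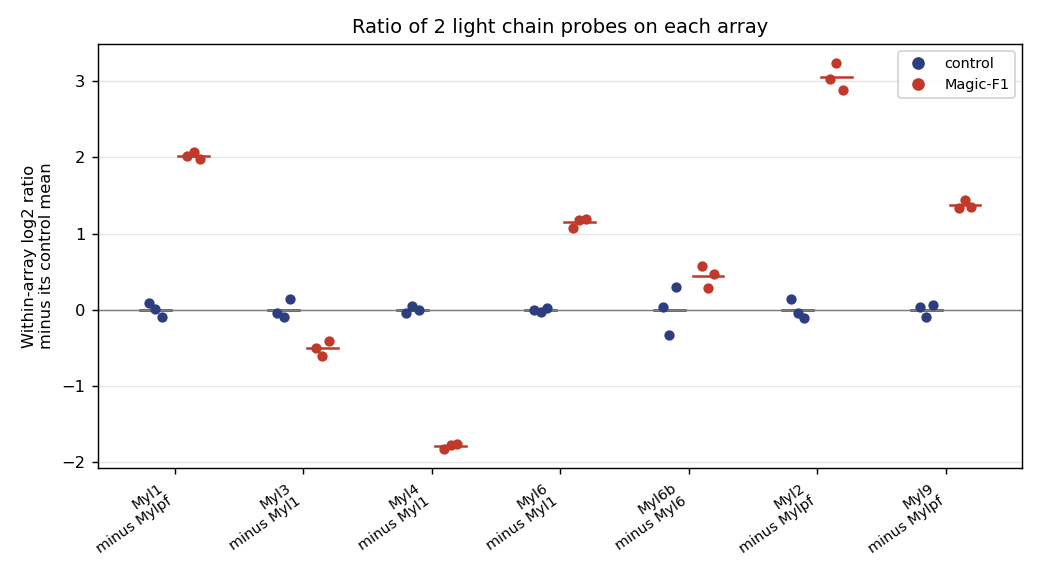
Log2 ratio of 2 light chain probes on each array minus its mean over the control arrays, for 7 pairs of genes, with control arrays in blue, Magic-F1 arrays in red and a line at each group mean (n = 3). The ratios of Myl1, Myl2 and Myl9 to Mylpf are higher on all 3 Magic-F1 arrays, that of Myl4 to Myl1 is lower, and the points of Myl6b (opposite strand) against Myl6 overlap.

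Myl12a and Myl10 were lower too, and Myl12b was lower by its brightest probe. Myl12a and Myl12b encode regulatory chains of nonmuscle myosin. Myl12a was 2.18-fold lower (log2 −1.12, SE 0.04, adjusted p = 1.44e-06). Myl12b was 2.06-fold lower (log2 −1.05, SE 0.06, adjusted p = 5.17e-06) by its brightest probe, which changed by −0.40 under quantile normalization, but its other probe changed by 1.56, so the direction for Myl12b depends on the probe. Myl10, a regulatory chain first described in lymphoid precursors, was at least 2.29-fold lower and was not well above background on the Magic-F1 arrays. All 3 genes were called lower by their brightest probe, beside 47.8% of the 14725 tested genes (88.3% were called in either direction), and their median was −1.12 against −0.15 over all genes.

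Enzymes that act on the regulatory chain went both ways. Of 18 tested kinases, phosphatase subunits and their regulators 12 were lower and 6 higher, beside 47.8% and 40.5% of all tested genes. The median log2 change was −0.37. Ppp1r14a, the phosphatase inhibitor CPI-17 of smooth muscle, stood at −4.32, −4.48 and −3.97 in Magic-F1 and at 2.12, 2.04 and 2.24 in control replicates and was 84.0-fold lower (log2 −6.39, SE 0.14, and −4.33 with normexp background). Mylip, a ubiquitin ligase named for binding a myosin regulatory chain and known for degrading the LDL receptor, was 10.8-fold higher (log2 3.44, SE 0.07), and Ppp1r12c, a targeting subunit of myosin phosphatase, was 4.31-fold higher (log2 2.11, SE 0.04). The other Mylip probe changed by 1.84 and the other Ppp1r12c probe by −0.39. The adjusted p of these 3 genes lay between 1.09e-07 and 1.30e-07. Under spike-in scaling 6 of the 18 were called lower and the median was 0.092. Over all 21175 tested probes that scaling called 7184 lower and gave a median of 0.36. The sign of the median of this list therefore depends on a scaling that moves all probes.

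Heavy chains, the partners of the light chains, did not move together. Of 7 tested sarcomeric heavy chains 5 were lower and 2 higher (median −1.52), beside 47.8% and 40.5% of all tested genes. Myh6 and Myh7, the alpha and the slow beta heavy chain, were 6.85-fold (log2 −2.78, SE 0.10) and 6.13-fold lower (log2 −2.62, SE 0.06). With normexp background Myh6 changed by −1.89. Myh2, the fast IIa heavy chain, went against the fast light chains. It stood at 2.43, 2.37 and 2.44 in Magic-F1 and at −1.52, −1.54 and −1.40 in control replicates and was 14.9-fold higher (log2 3.90, SE 0.06, adjusted p = 4.10e-08). The other heavy chain called higher was Myh4, the fast IIb form (log2 2.36, SE 0.05), which is named here because it is the second of 2. Among 4 nonmuscle and smooth muscle heavy chains, 2 were higher and 2 lower. Myh11, the smooth muscle heavy chain, was 15.9-fold lower (log2 −3.99, SE 0.14, and −2.38 with normexp background), while the nonmuscle chains Myh14 and Myh9 were 2.50-fold (log2 1.32, SE 0.07, and 0.62 with normexp background) and 2.33-fold higher (log2 1.22, SE 0.08). Their adjusted p was 7.70e-07, 6.24e-06 and 1.54e-05. Myh10, also a nonmuscle chain, was the other one called lower (log2 −0.56, adjusted p = 0.00052). Its other probe changed by −0.10, and under spike-in scaling its brightest probe changed by −0.094. Under spike-in scaling 1 of these 4 was called lower, beside 7184 of the 21175 tested probes.

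Of 14 tested transcription factors of muscle genes 8 were lower and 4 higher (median −0.59), beside 47.8% and 40.5% of all tested genes. Under spike-in scaling 7 were lower and 6 higher (median −0.13, against 0.36 over all tested probes). Myog, which switches on sarcomeric genes in differentiating myoblasts, was 25.01-fold lower (log2 −4.64, SE 0.05), Myod1 18.5-fold lower (log2 −4.21, SE 0.07) and Tead4, a factor of the MCAT element, 11.2-fold lower (log2 −3.48, SE 0.05). Their adjusted p was 2.22e-08, 5.24e-08 and 3.49e-08. Srf, the CArG box factor, was 1.27-fold lower (log2 −0.34, SE 0.05), but changed by 0.12 under spike-in scaling, and was named after its value was seen, because Myl9 carries its motif. Mrtfa, a coactivator of Srf, went the other way (log2 1.69, SE 0.05, other probe 1.70), and Myocd was not tested. Also called higher were Mef2d (1.19, other probes −0.68 and 0.06), Mef2a (0.39, other probe −0.68) and Mef2c (0.38). A link between Srf and Myl9 was not tested.

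**Figure D4:**
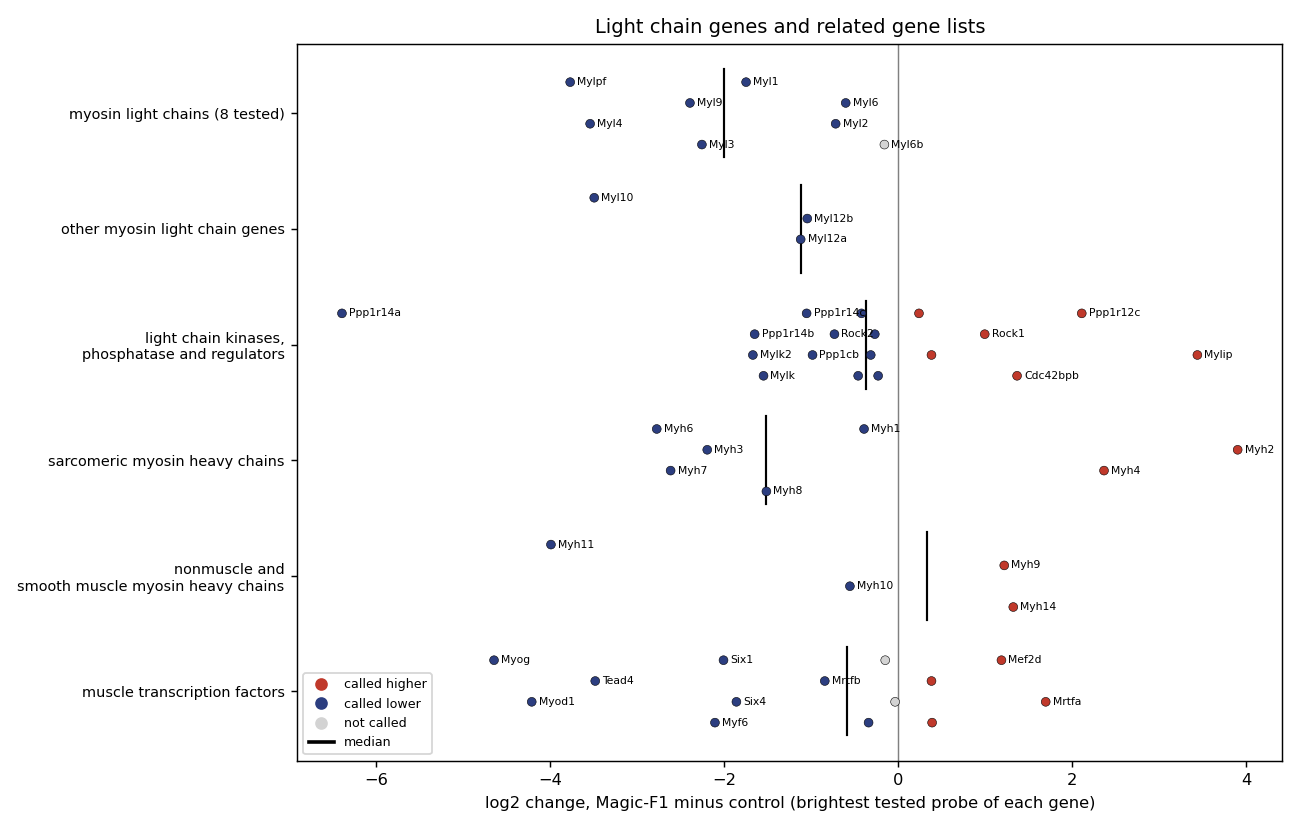
Log2 change, Magic-F1 minus control, of the brightest tested probe of each gene for the 8 tested light chain genes and 5 related gene lists, with called genes in red (higher) or blue (lower), uncalled genes in grey and a line at the median of each row; in rows of over 10 genes those within 0.5 of 0 carry no name. Light chain genes lie left of 0, with Myl6b (opposite-strand probe) not called, while heavy chains and light chain enzymes lie on both sides.

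Promoters were searched on both strands over the 250 bases before each RefSeq start (11 starts of the 9 genes, GRCm38.p6). Only 1 start of Myl1 was searched. Which form it serves was not settled, and the other Myl1 promoter was not analysed here. An E-box (CANNTG) was found at 8 of 11 starts, and at 66.2% of 32851 mouse promoters of the same length. The CAGCTG E-box, which is counted within the former, was found at 3 starts, those of Myl1 (224 bases before the start), Mylpf (51 bases) and 1 of the 2 Myl2 starts (130 bases), and at 13.0% of all promoters. A CArG box was found at 4 starts, of Myl3, Myl7, Myl9 and 1 of the 2 Myl6 starts, and at 1.47% of all promoters, 161 bases before the start for Myl9. A MEF2 box was found at 0 member starts and at 0.508% of all promoters. The start of Myl4 held none of the motifs. Whether any motif had a part in the changes was not tested. These matches describe the letters of these windows and are not evidence of binding.

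For each of the 8 tested genes the 2 nearest of 12838 named genes were taken by the root mean square difference of log2 signals over the 6 arrays, each gene centred on its own mean. For Mylpf these were Hspb3, a small heat shock protein of muscle (0.048, log2 change −3.73), and Slc16a11, a monocarboxylate transporter family member (0.049, −3.80). For Myl4 they were Mzb1, a protein of the endoplasmic reticulum of B cells (0.036, −3.52), and Pop4, a subunit of ribonuclease P (0.045, −3.48). Myl1 lay nearest to Tcp1, a chaperonin subunit (0.017, −1.74), and Clns1a (0.019, −1.74), and Myl9 to Dtymk, thymidylate kinase (0.037, −2.42), and Sec61g (0.037, −2.44). Myl3 lay nearest to Magoh (0.033) and Ddah1 (0.034), Myl2 to Dnajc8 (0.038) and Il12rb1 (0.042), and Myl6 to Yjefn3 (0.012) and Thap3 (0.016). The opposite-strand Myl6b probe lay nearest to Nat8f4 (0.067) and Ocstamp (0.093). With 6 arrays in 2 groups this measure mostly finds genes with a change of the same size. Within a distance of 0.1 lay 768 genes for Myl6, 421 for Myl1, 54 for Myl4 and 38 for Mylpf.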

How the data were processed

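Single-colour Agilent arrays of 6 mouse satellite cell RNAs were analysed, 3 Magic-F1 and 3 control. The intensity of each spot is a background-subtracted processed signal from Agilent Feature Extraction 10.5.1.1, per the file headers, without normalization between arrays, and positions are on mm9. The authors also deposited a table of log2 values, which equals the log2 processed signal to within 1e-06 for 4 arrays and holds other values for both arrays numbered 1 (SD of the difference 0.456 and 0.472). Its column medians were 3.53, 3.50 and 3.59 for Magic-F1 and 3.32, 3.35 and 3.40 for control replicates 1, 2 and 3. The sources used here do not say how those 2 columns were made.

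Groups came from the sample labels and replicate numbers from the titles. Control spots and outlier-flagged spots (59 to 89 an array) were not used. The 75th percentile of each array was subtracted on the log2 scale. That percentile was 348 ± 7.78 on Magic-F1 and 282 ± 8.93 on control arrays (SD, n = 3), and the number of arrays limits the precision. Repeat spots were averaged, and testing needed a probe well above background on every array of 1 or both groups. Groups were compared with limma 3.58.1 (lmFit, eBayes) in R 4.3.3 over all 21175 tested probes, 2-sided, with Benjamini-Hochberg adjustment and a threshold of 0.05. Ratios of probes were compared by the exact permutation test over arrays. Of 41174 probes, 25097 were named by accession through the RefSeq gene table of GRCm38.p6 and 16077 kept the name in the files. A gene is represented by its brightest tested probe. Probes were not placed in coding sequence or UTR here. Promoter sequences are from RefSeq (GRCm38.p6).

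Named were all 9 members, up to 3 genes of each related list (called ones first, then by size of change), and for each tested member the 2 genes with the nearest signals. Further genes of the heavy chain and transcription factor lists were named after their values were seen. The members and the lists were chosen with earlier results of these data known. The test was tried on simulated data.

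Alternatives covered background correction, scaling, filters, blocks, variance models, the authors' table and leaving out each array. The main fit did not pair samples by replicate number. The deviations of same-numbered arrays from their group means correlated by −0.0029, 0.11 and 0.069, and those of differently numbered arrays by −0.115 to 0.048. With 3 arrays a group, and replicate 2 of both groups on slide 2, these values cannot settle whether the samples were paired.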

Additional observations from a re-analysis of the deposited data

How the results depend on the processing

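Of 246 values of single light chain probes under 19 alternatives, 235 kept direction and side of the threshold, 2 lost their call (both Myl6, given above), 6 gained one (all the 5′ Myl3 probe) and 3 turned sign. The number of member probes called lower was 11, and 10 to 12 under the alternatives, with 0 called higher in each. The replicate block gave 12 lower member probes and, over all probes, 9824 lower and 8707 higher (9833 and 8746 without it). Spike-in scaling gave 7184 lower and 11150 higher over all probes, changes of 0.011 for the 5′ Myl3 probe and 0.30 for the opposite-strand Myl6b probe, 6 lower enzyme genes of the light chain with a median of 0.092, and 1 lower nonmuscle or smooth muscle heavy chain. Leaving out 1 array at a time moved the opposite-strand Myl6b probe between −0.33 and 0.012. With the median of the probes of a gene, the changes of the log2 ratios were 1.63 (Myl1 to Mylpf), 0.79 (Myl3 to Myl1), −1.49 (Myl4 to Myl1), 1.53 (Myl6 to Myl1) and −0.88 (Myl6b to Myl6). Quantile normalization gave −0.87 (Myl3 to Myl1), 1.04 (Myl6 to Myl1), 0.19 (Myl6b to Myl6) and 2.72 (Myl2 to Mylpf). Normexp background gave 0.22 (Myl3 to Myl1) and 3.27 (Myl2 to Mylpf). The sense Myl6b probe, chosen after seeing the data and dim in Magic-F1, gave a limit of −1.37 or lower against Myl6, and it also enters the median of the Myl6b probes. The causes were not tested. Signal over background left Myl7 untested and the sense Myl6b probe with a bound. Normexp background, with its offset of 50, made the changes of the 3′ Myl3 probe and of Myl2 smaller.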
